A study of Homo sapiens with 6 samples.

Results

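The 37 genes of the human mitochondrial genome were examined by RNA class in KYSE450 cells and their KEAP1null derivative. They were taken from the deposited expression matrix as all rows whose symbol starts with MT-, which gave 37 of 58884 genes. Of these, 13 encode proteins of oxidative phosphorylation (symbols starting with MT-ND, MT-CO, MT-ATP and MT-CYB), 2 encode ribosomal RNA (MT-RNR) and 22 encode transfer RNA (MT-T). All 37 were matched by gene identifier to chromosome M of hg38 in the gencode v44 annotation, where 28 lie on the plus strand and 9 on the minus strand.

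The series compared untreated KYSE450 cells, a human esophageal squamous cell carcinoma (ESCC) line with wild-type NRF2, with untreated KEAP1null-KYSE450 cells, in which KEAP1 had been disrupted by CRISPR-Cas9. Each line had 3 RNA-seq libraries made from total RNA. KEAP1 targets the transcription factor NRF2 for degradation, so the comparison addresses what NRF2 activation does to gene expression in an ESCC line. KEAP1null-KYSE450 is a monoclonal line, and whatever else distinguishes this clone from its parent cannot be told apart from the loss of KEAP1. The labels do not say whether the 3 libraries of a line came from separate cultures, so p-values measure the spread between these samples, which may be technical. Libraries are numbered here by the order of the columns, which carry no replicate number.

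The summed normalized counts lay between 54829313 and 57380170 per library, and the 4 libraries whose reads could be recovered held 53027359 to 61543442 reads. At this depth 3 reads correspond to 2.77 to 3.21 normalized counts, a floor that covers counting error only. KEAP1 mRNA did not separate the lines (log2 fold change -0.02, adjusted p = 0.90 in limma with Benjamini-Hochberg adjustment), whereas NQO1, a canonical NRF2 target, was 6.48-fold higher in KEAP1null-KYSE450 cells. All 6 squamous epithelial markers were above the floor, with summed levels of 309294 to 415416 in KYSE450 and 574308 to 716648 in KEAP1null-KYSE450. Of these 6, 2 were higher and 4 lower in KEAP1null-KYSE450, with log2 fold changes of -4.70 to 1.46 and a median of -0.50. The larger sum thus does not hold for each marker. Markers of immune cells summed to 1.85 to 9.10 and those of columnar epithelium to 0 to 14.1 normalized counts over all libraries. The fibroblast list held 4 of 5 markers above the floor in some library (622 to 853 in KYSE450, 348 to 436 in KEAP1null-KYSE450, mostly COL1A1, with DCN below the floor), and the endothelial list 2 of 3 (57.8 to 73.8 and 41.5 to 68.6, with PECAM1 at 0). Their part in the results on mitochondrial RNA was not tested.

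Mitochondria keep a small circular genome whose strands are both transcribed as long polycistronic RNAs. The primary transcripts are cut mainly at the transfer RNAs, which punctuate the messenger and ribosomal RNAs, and the released messengers mostly receive short poly(A) tails. A nuclear-encoded polymerase, POLRMT, works with TFAM and TFB2M to start transcription, and the encoded proteins join nuclear-encoded subunits in respiratory complexes I, III and IV and in ATP synthase.

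Several features of this arrangement decide what a count per gene can show. Of the 13 protein-coding members, 12 lie on the plus strand and MT-ND6 alone lies on the minus strand of a genome of 16569 bases. The transfer RNA genes are 59 to 75 bases long, shorter than the 150-base reads named in the methods. Neighbouring genes share bases in 5 places, the longest being 46 bases of MT-ATP8 and MT-ATP6. The strand setting of the counting, the handling of reads that lie in more than 1 gene and any selection of polyadenylated RNA are not given in the sources used here. Reads from a mitochondrial gene and from the RNA opposite it therefore cannot be told apart.

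The stretches shown next are reference sequence of hg38 and mark the places the counts turn on. The first is the control region before the first gene of the plus strand, followed by MT-TF in capitals (chrM:427-647, plus strand). The second runs from the end of MT-RNR1 across MT-TV, in capitals, into MT-RNR2 (chrM:1562-1710, plus strand), the border between the ribosomal members, which are described together further on. The third holds the end of MT-ND5 in lower case and, in capitals, the last bases of MT-ND6 as they read on the opposite strand (chrM:14119-14178, plus strand). The fourth is MT-TT (chrM:15888-15953, plus strand), the only transfer RNA member that passed the test.
before MT-TF: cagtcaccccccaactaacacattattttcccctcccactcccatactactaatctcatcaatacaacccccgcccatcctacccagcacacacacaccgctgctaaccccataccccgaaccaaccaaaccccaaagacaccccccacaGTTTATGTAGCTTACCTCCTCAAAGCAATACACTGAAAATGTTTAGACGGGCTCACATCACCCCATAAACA
MT-RNR1 to MT-RNR2: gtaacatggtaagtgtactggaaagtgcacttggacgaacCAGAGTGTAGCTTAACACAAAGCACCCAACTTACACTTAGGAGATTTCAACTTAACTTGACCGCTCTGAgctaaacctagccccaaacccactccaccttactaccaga
MT-ND5 to MT-ND6: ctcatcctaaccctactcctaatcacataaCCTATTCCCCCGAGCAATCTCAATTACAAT
MT-TT: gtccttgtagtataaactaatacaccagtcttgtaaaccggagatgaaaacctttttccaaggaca

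Mitochondrially encoded RNA made up a larger share of the library in KEAP1null-KYSE450 cells. All 37 members together held 2.04%, 2.07% and 2.83% of the normalized counts in KYSE450 and 4.41%, 3.92% and 4.65% in KEAP1null-KYSE450. The groups did not overlap, and the means were 2.31% ± 0.447 and 4.33% ± 0.371 (SD, n = 3 each), a ratio of 1.87. Such a share does not depend on the size factor of the library, and no p is given for it, since an exact permutation test of 3 against 3 libraries cannot go below 0.1. In bulk RNA, more mitochondrial RNA per cell and less RNA from the nucleus cannot be told apart.

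Each RNA class held a larger share in KEAP1null-KYSE450. Protein-coding members held 1.39%, 1.42% and 1.98% of the KYSE450 libraries and 3.17%, 2.78% and 3.28% of the KEAP1null-KYSE450 libraries, means of 1.60% ± 0.332 and 3.08% ± 0.267. The ribosomal members held 0.651%, 0.652% and 0.850% against 1.24%, 1.15% and 1.36%, means of 0.718% ± 0.115 and 1.25% ± 0.109. Neither class overlapped between the lines. The 22 transfer RNA members together held 0.000173%, 0.000155% and 0.000260% in KYSE450 and 0.000438%, 0.000457% and 0.000485% in KEAP1null-KYSE450. These shares did not overlap either, but 13 of the 22 genes were at or below the floor in every library. A class share can rest on few of its members. In the ribosomal class MT-RNR1 went from 67963 ± 8976 to 70714 ± 6799 normalized counts and MT-RNR2 from 339214 ± 61159 to 622959 ± 61378. MT-TT, the most abundant transfer RNA member, went from 48.7 ± 9.27 to 132 ± 22.1.

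**Figure D1:**
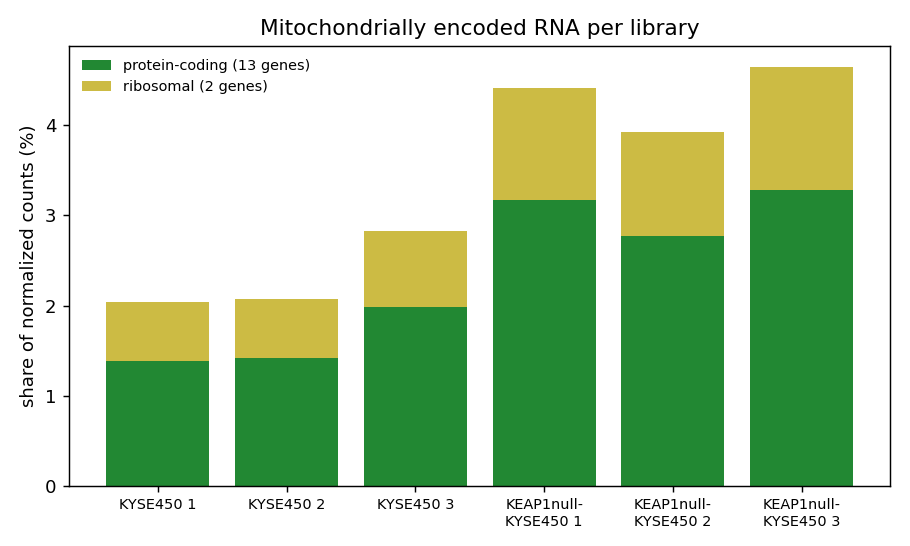
Stacked bars give the percent of all normalized counts in each library (y axis, starting at 0) held by the 13 protein-coding and 2 ribosomal members, with 1 bar per library; the transfer RNA members are too low to draw. The 3 KEAP1null-KYSE450 bars, between 3.92% and 4.65%, all stand above the 3 KYSE450 bars, between 2.04% and 2.83%.

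Gene by gene, 20 of the 37 members had a mean of at least 10 normalized counts over the 6 libraries and were tested with limma, and 17, all transfer RNAs, were not. Of the 20, 15 (75%) were higher in KEAP1null-KYSE450 cells at an adjusted p under 0.05 and 0 were lower, while over all 16701 genes tested 24.3% were higher and 25.5% lower. The number lower at an adjusted p under 0.05 was also 0 with edgeR and DESeq2 on the recovered reads of 4 libraries. All 20 limma fold changes were positive, so no member could count as lower there at any p. Those of MT-RNR1, MT-TQ and MT-TP turned negative under some other settings. With a log2 fold change of at least 1 asked for as well, 7 members counted as higher, against 12.2% of all genes. The libraries did not overlap and were higher in KEAP1null-KYSE450 for 16 of the 20, against 28.4% of all genes. The median log2 fold change of the 20 was 0.95, and that of all genes tested was 0.00. These are counts over neighbouring genes that are transcribed together and are not independent of each other.

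MT-ND6, a membrane subunit of complex I and the only messenger of the minus strand, had the largest log2 fold change of the 20. Its normalized counts were 622, 641 and 880 in KYSE450 and 1915, 2109 and 2391 in KEAP1null-KYSE450. Each KEAP1null-KYSE450 library was above every KYSE450 library, and the log2 fold change was 1.59 (SE 0.14, adjusted p = 2.29e-06 in limma with Benjamini-Hochberg adjustment). MT-ND6 was also the least abundant of the 13 messengers per length, at 1361 ± 274 normalized counts per kilobase in KYSE450, and MT-ND3, the next in order, stood at 30031 ± 6587.

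The other 6 members of complex I all rose by similar amounts. MT-ND1 had normalized counts of 48480, 46909 and 73404 in KYSE450 and 110526, 91740 and 113285 in KEAP1null-KYSE450. MT-ND2 had 33715, 34799 and 50862 against 85553, 71241 and 88505. In both genes the lowest KEAP1null-KYSE450 library was above the highest KYSE450 library, KYSE450 library 3. The log2 fold changes were 0.93 for MT-ND1 and 1.06 for MT-ND2.

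MT-ND4 and MT-ND4L, whose reading frames share 7 bases, kept the same proportion to each other in both lines. MT-ND4 had normalized counts of 107660, 105985 and 154485 in KYSE450 and 269728, 226752 and 260749 in KEAP1null-KYSE450. MT-ND4L had 14237, 15229 and 22801 against 39973, 32726 and 34487. Neither gene overlapped between the lines. Both log2 fold changes were 1.06, and the MT-ND4L count was 14.1% ± 0.798 of the MT-ND4 count in KYSE450 and 14.2% ± 0.831 in KEAP1null-KYSE450, values that overlapped.

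MT-ND3 had normalized counts of 9164, 8988 and 13020 in KYSE450 and 19023, 17285 and 21195 in KEAP1null-KYSE450, a log2 fold change of 0.90. MT-ND5, which ends next to MT-ND6 on the opposite strand, had 56866, 58913 and 86050 against 136592, 127541 and 125692, a log2 fold change of 0.98. Both were higher without overlap. The adjusted p of the 6 genes MT-ND1, MT-ND2, MT-ND3, MT-ND4, MT-ND4L and MT-ND5 lay between 0.000125 and 0.000523 (limma, Benjamini-Hochberg).

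MT-CYB encodes cytochrome b, the single mitochondrially encoded subunit of complex III. Its normalized counts were 39051, 38679 and 56012 in KYSE450 and 77327, 64422 and 77601 in KEAP1null-KYSE450. The groups did not overlap, and the log2 fold change of 0.73 (SE 0.15, adjusted p = 0.00132 in limma with Benjamini-Hochberg adjustment) was the second smallest of the protein-coding members.

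The complex IV members MT-CO1, MT-CO2 and MT-CO3 form the catalytic core of cytochrome c oxidase. MT-CO1 had normalized counts of 223870, 231143 and 322571 in KYSE450 and 498512, 452439 and 549709 in KEAP1null-KYSE450. MT-CO2 had 84289, 82938 and 117154 against 150390, 128970 and 161524. MT-CO3 had 114689, 113029 and 157426 against 230759, 189598 and 248937. All 3 were higher without overlap, although for MT-CO2 the gap between KYSE450 library 3 and KEAP1null-KYSE450 library 2 was narrow. Their log2 fold changes were 0.96 for MT-CO1 (SE 0.17, adjusted p = 0.000502), 0.65 for MT-CO2 (SE 0.15, adjusted p = 0.00359) and 0.81 for MT-CO3 (SE 0.16, adjusted p = 0.00115) in limma. Quantile normalization left MT-CO1 at 0.33 (adjusted p = 0.11), and edgeR on the recovered reads of 4 libraries left MT-CO2 at 0.50 (adjusted p = 0.10).

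Per length, the messengers kept a similar order in both lines. In KYSE450 the 3 complex IV members led the messengers with mean normalized counts per kilobase of 168090 ± 35672 for MT-CO1, 163751 ± 32101 for MT-CO3 and 138587 ± 28328 for MT-CO2, whose differences were within their spread. MT-ND4 followed at 89049 ± 19979 and MT-ATP6 at 82924 ± 18451. In KEAP1null-KYSE450 the same 5 led, at 324397 ± 31555 for MT-CO1, 284564 ± 38779 for MT-CO3, 214856 ± 24190 for MT-CO2, 183171 ± 16451 for MT-ND4 and 173727 ± 21632 for MT-ATP6. There MT-CO2 lay nearer to MT-ND4 than to MT-CO3.

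MT-ATP6 and MT-ATP8 encode membrane subunits of ATP synthase and overlap in different reading frames. MT-ATP8 had normalized counts of 6954, 6710 and 10013 in KYSE450 and 18847, 15015 and 18204 in KEAP1null-KYSE450, and MT-ATP6 had 48757, 49686 and 70970 against 123304, 101728 and 129892. Both were higher without overlap, with log2 fold changes of 1.15 for MT-ATP8 (SE 0.15, adjusted p = 3.94e-05) and 1.08 for MT-ATP6 (SE 0.15, adjusted p = 0.000106) in limma. The count of MT-ATP8 was 14.0% ± 0.401 of that of MT-ATP6 in KYSE450 and 14.7% ± 0.638 in KEAP1null-KYSE450, values that overlapped.

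**Figure D2:**
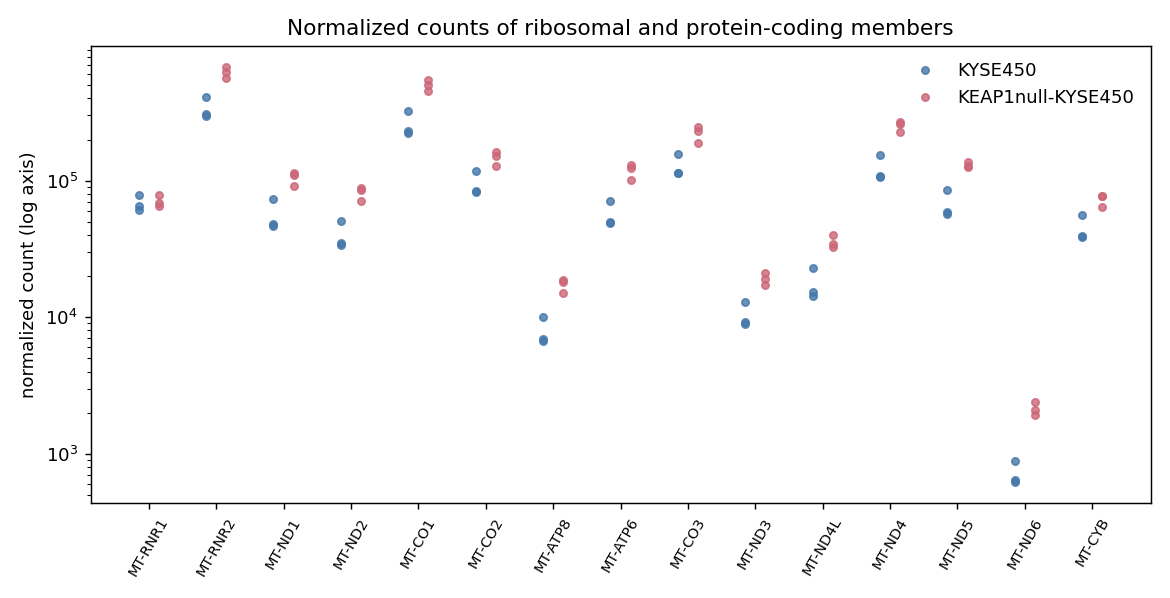
Each point is 1 library, with the normalized count on a log axis, for the 2 ribosomal and 13 protein-coding members in the order of the genome. The KEAP1null-KYSE450 points lie above all KYSE450 points for 14 of the 15 genes, and those of MT-RNR1 overlap.

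The shared bases of MT-ATP8 and MT-ATP6 are shown together with their close counterpart in the nuclear genome. The stretch chrM:8507-8592 (plus strand, hg38) is printed with the 46 shared bases, positions 8527 to 8572, in capitals. A nuclear copy of this region lies on chromosome 1 (chr1:629081-634924, plus strand), covers mitochondrial positions 3911 to 9755 and is 98.5% identical to them. The matching piece of that copy, chr1:633676-633761, is printed below the mitochondrial one with its single differing base in capitals.
MT-ATP8 and MT-ATP6: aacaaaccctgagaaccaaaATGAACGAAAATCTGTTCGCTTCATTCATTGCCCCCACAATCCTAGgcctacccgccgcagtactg
chromosome 1 copy: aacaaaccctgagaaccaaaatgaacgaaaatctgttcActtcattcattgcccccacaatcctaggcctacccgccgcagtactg

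Such copies were counted on rows of their own. Of 407 rows named as nuclear copies of mitochondrial genes, 42 had a count above 0 in some library and 9 were tested. Of these 9, 3 were higher and 6 did not pass, where 24.3% of all genes tested were higher. A count over so few rows says little about the copies as a group. Their summed counts equalled 2.6% to 2.97% of the mitochondrial signal in the 6 libraries. The highest was MTCO1P12, with 26225, 26051 and 38394 normalized counts in KYSE450 and 60110, 54096 and 54884 in KEAP1null-KYSE450 (log2 fold change 0.92), followed by MTATP6P1 with 5790, 4700 and 6863 against 10896, 9259 and 11971 (log2 fold change 0.90). MTRNR2L12 was the next by mean level, at 80.9 ± 11.7 and 116 ± 15.9 (log2 fold change 0.51, adjusted p = 0.081 in limma). Both leading copies were higher without overlap, by amounts close to those of MT-CO1 and MT-ATP6. Of the 150-base windows of each member, 15.7% in MT-ND2, 14.5% in MT-CO1, 10.4% in MT-RNR1 and 1.1% in MT-ND1 occurred unchanged elsewhere in the genome, and 0% in the other 11 messenger and ribosomal genes. Whether reads moved between members and their copies was not tested.

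The ribosomal members did not behave alike. MT-RNR2, the RNA of the large mitochondrial ribosomal subunit, had 308306, 299677 and 409658 normalized counts in KYSE450 and 625869, 560178 and 682830 in KEAP1null-KYSE450. It was higher without overlap (log2 fold change 0.89, SE 0.17, adjusted p = 0.000853 in limma with Benjamini-Hochberg adjustment). MT-RNR1, the RNA of the small subunit, had 61069, 64707 and 78113 against 65282, 68521 and 78339. Its libraries overlapped, the log2 fold change was 0.06 (SE 0.12, adjusted p = 0.71), and its sign turned under 5 of 16 other settings, between -0.09 and 0.17. MT-RNR2 was at 0.09 (adjusted p = 0.61) after quantile normalization.

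The proportion of the ribosomal members to each other differed between the lines. The MT-RNR1 count was 19.8%, 21.6% and 19.1% of the MT-RNR2 count in KYSE450 and 10.4%, 12.2% and 11.5% in KEAP1null-KYSE450. All 3 KEAP1null-KYSE450 libraries were below all 3 KYSE450 libraries, with means of 20.2% ± 1.30 and 11.4% ± 0.904. This and the other proportions between members were chosen after the values were seen and have no test. Per kilobase, MT-RNR2 had the highest mean of the 15 messenger and ribosomal genes in both lines, and MT-RNR1 stood at 71240 ± 9409 in KYSE450 and 74124 ± 7127 in KEAP1null-KYSE450.

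**Figure D3:**
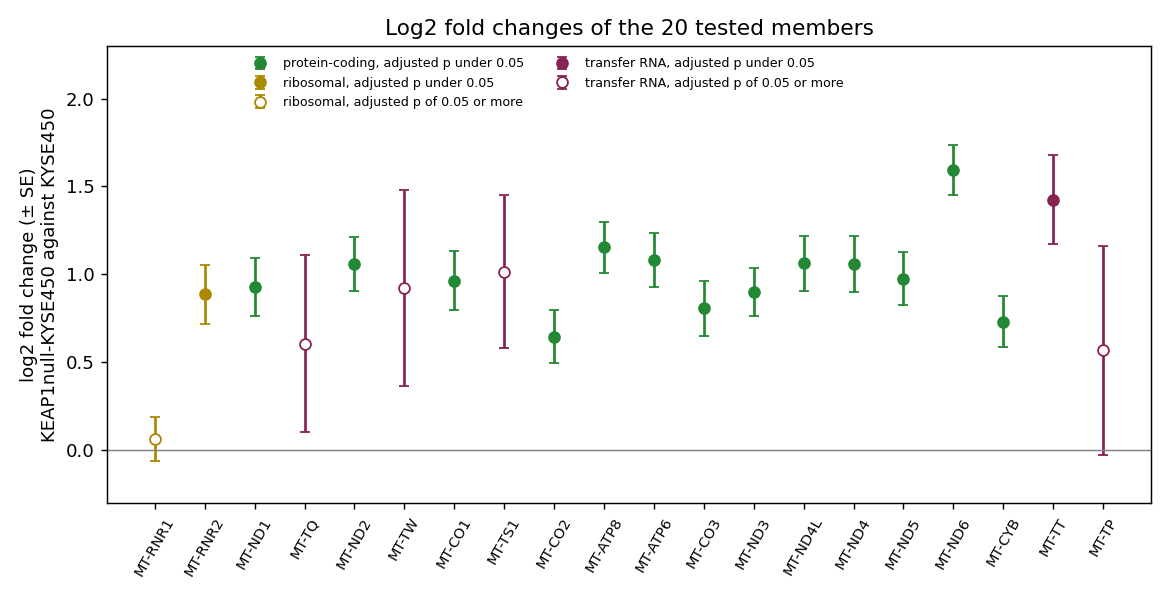
Log2 fold changes of KEAP1null-KYSE450 against KYSE450 (y axis, with standard errors as bars) for the 20 tested members, in the order of the genome and coloured by class, with filled points for an adjusted p under 0.05. The 13 protein-coding members lie between 0.65 and 1.59, MT-RNR2 at 0.89 and MT-RNR1 at 0.06.

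The transfer RNA members were close to the limit of detection. Of the 22, 7 were listed at 0 in all 6 libraries (MT-TN, MT-TC, MT-TK, MT-TG, MT-TR, MT-TH and MT-TL2), and 13, these included, were at or below the floor of 3 reads in every library. Only 5 reached a mean of 10 normalized counts. The counts of such short genes say little about the amount of mature transfer RNA, which was not measured separately.

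MT-TT, the threonine transfer RNA, lies directly behind MT-CYB. It had 47.1, 40.4 and 58.7 normalized counts in KYSE450 and 107, 148 and 142 in KEAP1null-KYSE450. It was higher without overlap, with a log2 fold change of 1.43 (SE 0.25, adjusted p = 0.000552 in limma with Benjamini-Hochberg adjustment). MT-CYB, its neighbour on the same strand, had a log2 fold change of 0.73.

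The remaining 4 tested transfer RNAs did not pass. In this class 1 of 5 tested members (20%) was therefore higher, near the 24.3% of all genes tested. MT-TS1, a serine transfer RNA that lies just past the end of MT-CO1 on the other strand, had 21.4, 9.10 and 17.7 normalized counts against 30.5, 26.5 and 39.3, which did not overlap (log2 fold change 1.01, SE 0.43, adjusted p = 0.069 in limma). It passed the threshold without KYSE450 library 1 and with eBayes run without trend. MT-TQ, for glutamine, had 9.63, 13.1 and 15.8 against 34.1, 12.2 and 18.2, and MT-TW, for tryptophan, had 6.42, 6.06 and 18.6 against 19.4, 23.4 and 13.1. MT-TP, for proline, had 4.28, 14.2 and 24.2 against 17.5, 14.3 and 22.2. These last 3 overlapped between the lines, at adjusted p of 0.34 for MT-TQ, 0.19 for MT-TW and 0.45 for MT-TP in limma.

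Among the untested transfer RNAs, MT-TA, for alanine, had 4.28, 0 and 0 normalized counts in KYSE450 and 13.8, 9.17 and 14.1 in KEAP1null-KYSE450 and did not overlap. MT-TE, for glutamic acid, had 2.14, 0 and 10.3 against 9.23, 8.16 and 14.1 and did overlap. MT-TI was above the floor in 2 KEAP1null-KYSE450 libraries (4.61 and 5.10) and MT-TY in 1 (6.46), and MT-TF, MT-TV, MT-TL1, MT-TM, MT-TD and MT-TS2 stayed between 0 and 3.06 in all 6.

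As parts of the mitochondrial signal alone, 10 of the 15 messenger and ribosomal members separated the lines without overlap and 5 overlapped. MT-RNR1 made up 5.27%, 5.59% and 4.81% of the summed mitochondrial counts in KYSE450 and 2.66%, 3.19% and 3.02% in KEAP1null-KYSE450. MT-ND6 made up 0.0538%, 0.0553% and 0.0542% against 0.0780%, 0.0981% and 0.0922%. Relative to their KYSE450 means these were the furthest apart of the 15, at 0.566 and 1.64 times, and neither overlapped.

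MT-CO2 made up 7.28%, 7.16% and 7.22% of the mitochondrial signal in KYSE450 and 6.13%, 6.00% and 6.23% in KEAP1null-KYSE450. MT-CYB and MT-CO3 were lower as well, and MT-ND2, MT-CO1, MT-ATP8, MT-ATP6 and MT-ND4 were higher, all without overlap. MT-RNR2 (25.9% ± 0.699 and 26.0% ± 0.418), MT-ND1, MT-ND3, MT-ND4L and MT-ND5 overlapped. As a class, the messengers went from 68.9% ± 0.971 to 71.1% ± 0.653 of the mitochondrial signal, and the ribosomal members from 31.1% ± 0.972 to 28.9% ± 0.652. A fall within a fixed total can come with a rise in count, as for MT-CO2, MT-CO3 and MT-CYB.

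**Figure D4:**
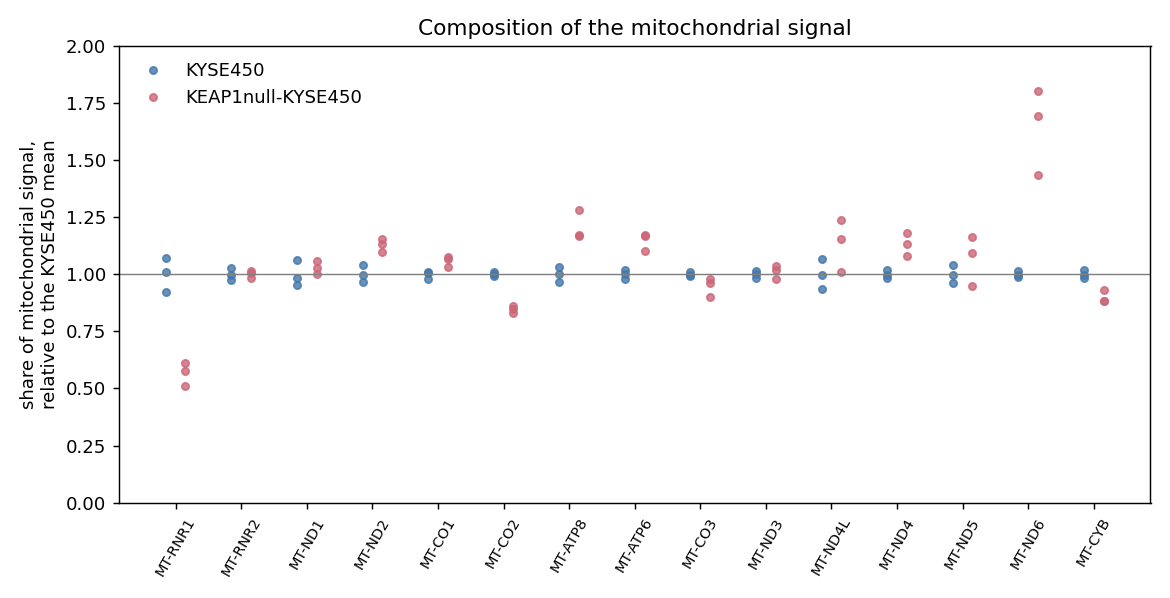
Share of the summed mitochondrial counts held by each messenger and ribosomal member in each library, divided by the KYSE450 mean of that member (y axis, starting at 0), with 1 point per library. MT-RNR1 lies lowest and MT-ND6 highest in the KEAP1null-KYSE450 libraries, while MT-RNR2 stays near 1 in both lines.

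Of 7 proportions between neighbours and partners, 4 separated the lines and 3 overlapped. The MT-ND6 count was 1.09%, 1.09% and 1.02% of that of MT-ND5, its neighbour on the other strand, in KYSE450, and 1.40%, 1.65% and 1.90% in KEAP1null-KYSE450. The MT-CO2 count was 37.7%, 35.9% and 36.3% of the MT-CO1 count against 30.2%, 28.5% and 29.4%. Both proportions separated the lines without overlap, in opposite directions. The MT-CYB count fell relative to MT-ND5 from 66.5% ± 1.93 to 56.3% ± 5.62, also without overlap. Beside the overlapping proportions of MT-ND4L to MT-ND4 and of MT-ATP8 to MT-ATP6, the MT-RNR2 count was 611% ± 45.8 of the MT-ND1 count in KYSE450 and 593% ± 23.7 in KEAP1null-KYSE450, which overlapped as well.

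Within the lines the members moved together from library to library. KYSE450 library 3 was the highest of its line for 15 of 15 messenger and ribosomal members, by 1.24-fold for MT-RNR1 to 1.55-fold for MT-ND4L over the mean of the other 2 libraries. KEAP1null-KYSE450 library 2 was the lowest of its line for 12 of 15, and library 3 the highest for 11. Without KYSE450 library 3, 12 members rather than 7 passed both thresholds. Without KYSE450 library 1, and likewise without library 2, only 4 did. The number passing the adjusted p alone lay between 15 and 16 when any single library was left out.

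Some RNAs that do not depend on a poly(A) tail, and some that are kept in the nucleus, also differed between the lines. Of 12 matched non-polyadenylated RNAs, only the signal recognition particle RNAs RN7SL1 and RN7SL2 reached a mean of 10, and both were higher. RN7SL1 had 1320, 1374 and 1535 normalized counts against 1980, 2874 and 2334 (log2 fold change 0.75), and RN7SL2 had 1247, 1373 and 1493 against 2249, 3306 and 2872 (log2 fold change 1.02). The nuclear-retained RNAs MALAT1 and NEAT1 were higher by 1.55 and 1.39 on the log2 scale, and KCNQ1OT1 was at 0.22 (adjusted p = 0.63 in limma). Within KEAP1null-KYSE450, library 2, the lowest for 12 of 15 members, was the highest for RN7SL1, RN7SL2 and NEAT1 (15054, 23348 and 20610). Within KYSE450, library 3 was the highest for RN7SL1 and RN7SL2, as it was for 15 of 15 members. The part of library preparation or RNA quality in the members' result was not tested.

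Nuclear genes that transcribe, process and copy the mitochondrial genome, listed together with regulators of mitochondrial biogenesis, were lower more often than higher. Of 77 such genes, 76 were tested and 6 (7.89%) were higher and 32 (42.1%) lower, against 24.3% and 25.5% of all genes tested. Their median log2 fold change was -0.20. With the filter at a mean of 100, 22.6% of 12341 genes were higher and 31.9% lower, with a median of -0.08. Without KYSE450 library 2, KEAP1null-KYSE450 library 2 or KEAP1null-KYSE450 library 3, the number of these nuclear genes called higher was 3. With the libraries scaled to the same total outside the mitochondrial genome it was 10. Of the 32 genes outside the mitochondrial genome named by the rule, 13 shared 55 to 3754 exon bases with a gene on the opposite strand, and reads from those bases cannot be told apart.

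Among 11 transcription genes, 1 was higher, 2 were lower and 8 did not pass. POLRMT, the polymerase, had 5817, 4346 and 4087 normalized counts in KYSE450 and 3970, 3303 and 3479 in KEAP1null-KYSE450 (log2 fold change -0.39, adjusted p = 0.024 in limma), a call that was lost under 8 of 16 other settings. TFAM, which packages the genome and opens its promoters, had 7386, 8769 and 9972 against 10026, 10200 and 10431 (log2 fold change 0.24, adjusted p = 0.085) and passed under 3 of 16. TFB2M, the initiation factor, was at 0.12 (adjusted p = 0.43). TEFM, the elongation factor, was higher at 0.40 (adjusted p = 0.044), although its libraries overlapped and the call was lost under 9 of 16 settings, and MRPL12, a ribosomal protein that also binds POLRMT, was lower at -0.50 (adjusted p = 0.0025).

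Among 35 RNA processing and modification genes, 2 were higher and 14 lower. NSUN3, which methylates the mitochondrial methionine transfer RNA, rose from 1991 ± 183 to 3690 ± 68.7 normalized counts (log2 fold change 0.89). PTCD2 was higher at 0.32, a call lost under 8 of 16 settings. The largest falls were those of MRM1, a methyltransferase of the large ribosomal RNA (-0.98), and of the transfer RNA modifying enzymes TRMU (-0.70) and CDK5RAP1 (-0.70). LRPPRC and SLIRP, partners that stabilise mitochondrial messengers, were at -0.11 (adjusted p = 0.39 in limma) and -0.20 (adjusted p = 0.23).

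Among 20 genes of replication and nucleotide supply, 3 were higher and 8 lower. POLG, the replicative DNA polymerase, had 6133, 5085 and 5131 normalized counts against 3381, 3168 and 3193, without overlap (log2 fold change -0.74, adjusted p = 6.55e-05 in limma). LIG3, the mitochondrial DNA ligase, was at -0.74 and ATAD3A at -0.59, and the helicase TWNK at -0.38 lost its call under 6 of 16 settings. The nucleotide supply genes TK2 (0.53) and RRM2B (0.50) were higher, and TOP1MT, a mitochondrial topoisomerase, was at 0.45 with a call lost under 9 of 16. TOP3A, another topoisomerase of this list, named here after its value was seen, was lower at -0.36 (adjusted p = 0.013 in limma).

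Of 11 regulators of mitochondrial biogenesis, 10 were tested, of which 8 were lower and 2 did not pass. TFEB, a regulator of lysosomal and mitochondrial genes, had 191, 80.9 and 141 normalized counts against 23.1, 37.7 and 22.2 (log2 fold change -2.23, adjusted p = 0.000214 in limma). NRF1, the nuclear respiratory factor (not NRF2), was lower at -0.81 and the coactivator PPARGC1B at -0.77. PPARGC1A was not tested, at 0, 2.02 and 7.46 against 24.0, 8.16 and 10.1 normalized counts.

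**Figure D5:**
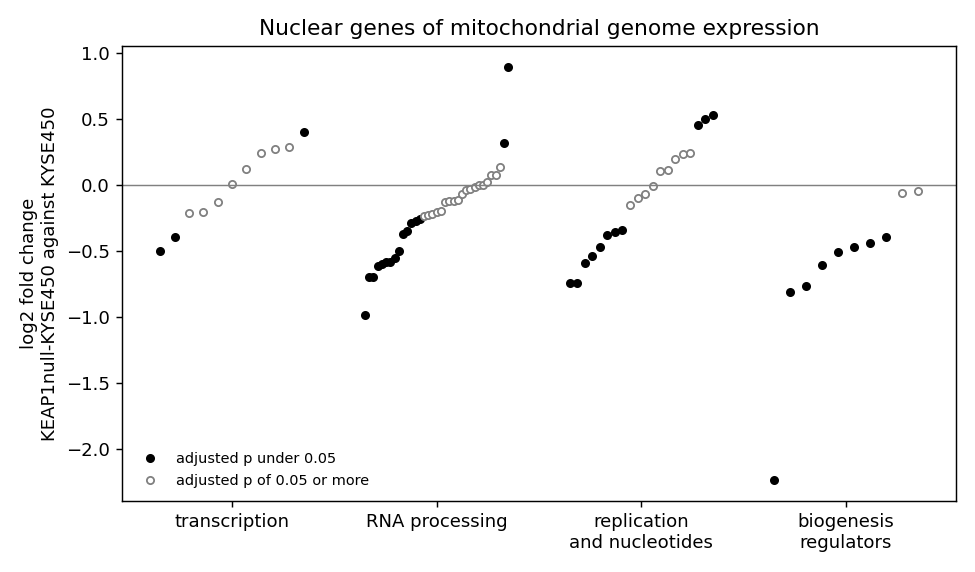
Each point is 1 of 76 tested nuclear genes, with its log2 fold change of KEAP1null-KYSE450 against KYSE450 on the y axis, grouped by function and filled where the adjusted p was under 0.05. Points below the line prevail among the filled ones (32 against 6), the lowest being TFEB at -2.23 and the highest NSUN3 at 0.89.

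The nuclear-encoded partners of the mitochondrially encoded proteins differed in both directions. Of 79 subunits, 75 were tested, 21 (28%) were higher and 8 (10.7%) lower, where 24.3% and 25.5% of all genes were. The share higher was near that of all genes, and the share lower was below it. The median log2 fold change of the subunits was 0.14, where that of the 13 protein-coding members was 0.98. Complex I had 6 higher and 4 lower of 37 (median 0.02), with NDUFC2 at 0.62 and NDUFV2 at -1.07. Complex III had 1 higher and 2 lower of 9 (median 0.12), with UQCR10 at 0.38 and UQCR11 at -0.40, calls lost under 6 and 12 of 16 settings.

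Complex IV had 6 higher of 11 and the other 5 did not pass (median 0.36), led by COX6C, which went from 4837 ± 559 to 7083 ± 990 normalized counts (log2 fold change 0.55). The 5 others that rose, named here after their values were seen, were COX5B, COX6A1, COX7A2, COX7B and COX7C, and COX4I1, COX5A, COX6B1, COX8A and NDUFA4 did not pass. ATP synthase had 8 higher and 2 lower of 18 (median 0.31), with ATP5MC1, a form of the membrane ring subunit, at 1.23 and ATP5F1B, the catalytic subunit, at -0.37, a call lost under 6 of 16 settings. Other forms of the ring subunit, named here after their values were seen, were ATP5MC2 at 0.82 and ATP5MC3 at -0.03 (adjusted p = 0.84 in limma). ATP5MC3 was more abundant than ATP5MC1, at 23530 ± 2786 and 22992 ± 1823 normalized counts against 3791 ± 605 and 8847 ± 977. MT-CO1, MT-CO2 and MT-CO3 had log2 fold changes of 0.65 to 0.96 beside these, and no test of the difference between nuclear and mitochondrial subunits was made.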

How the data were processed

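RNA-seq of 6 libraries was analysed, 3 per line. Per the labels and methods, the authors checked and trimmed reads (FastQC 0.11.5, cutadapt 1.12), aligned them to hg38 with STAR (2.6.90c), counted them per gene with featureCounts (1.5.1) and normalized the matrix. The processing notes also list a mouse build, mm10. The deposited signal is a normalized count for each gene in each library, not corrected for length. In all 6 libraries 100% of the values were whole multiples, within 0.01, of 1 step per library, which is what 1 read is worth. For 4 libraries the steps gave whole reads, and in the other 2 the step was too near 1 to accept. 0 columns belonged to other samples.

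Genes with a mean of at least 10 (16701) were tested two-sided with limma 3.58.1 (R 4.3.3; lmFit, then eBayes with trend). Values were log2-transformed after adding a pseudocount of 1, which understates changes of low genes. Benjamini-Hochberg adjustment ran over all tested genes, with a threshold of 0.05. SEs are those of limma. Shares were compared without a test. edgeR 4.0.16 (quasi-likelihood) and DESeq2 1.42.0 on the recovered reads of 4 libraries called 5386 and 5349 genes. The scripts were tested on simulated data. Nuclear copies were found by symbol and with BLAST 2.17.0.

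All members are named. Of the nuclear lists, 9 fixed genes and up to 3 per list and direction with the largest fold change at an adjusted p under 0.05 are named (1 per complex and direction for subunits, the 3 highest nuclear copies, and non-polyadenylated RNAs with a mean of at least 10). Members and lists were chosen with earlier results of these data known. The other settings were a pseudocount of 0.1 or 10, a filter at a mean of 100 or none, the same total per library (with or without mitochondrial genes), quantile normalization, eBayes without trend, leaving out each library, and adding nuclear copies, the last chosen after seeing the data.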

Additional observations from a re-analysis of the deposited data

How the results depend on the processing

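The members called higher at an adjusted p under 0.05 numbered 15 with the reported settings and 13 to 16 under 17 others, and no setting called a member lower. The count also asking for a log2 fold change of at least 1, 7 as reported, was 4 with edgeR and 3 with DESeq2 on the recovered reads of 4 libraries, and 4 to 12 with 1 library left out. The nuclear genes for mitochondrial genome expression called higher, 6 as reported, were 10 when libraries were scaled to the same total outside the mitochondrial genome, 11 after quantile normalization, 3 with edgeR, 3 with DESeq2 and 3 to 7 with 1 library left out, and those called lower, 32 as reported, were 19 with edgeR and 23 to 36 with 1 library left out. The difference in mitochondrial share stayed between 1.85 and 2.27 percentage points. The fold change of MT-RNR1 turned to -0.094 (quantile normalization), -0.025 (edgeR) and -0.052 (DESeq2). Its fold change lay between -0.015 and 0.17 with 1 library left out, below 0 without KYSE450 library 1 or KEAP1null-KYSE450 library 3. That of MT-TQ turned to -0.0086 and that of MT-TP to -0.096 after quantile normalization. With 1 library left out MT-TP lay between -0.063 and 1.07 and TFB2M between -0.0091 and 0.22, both lowest without KYSE450 library 1. MT-RNR2, MT-CO1 and MT-CO2 lost their call under 1 setting each, as given with their values. Quantile normalization sets the most abundant genes to like values in every library by construction; for edgeR and DESeq2, 2 libraries fewer were used, and other causes were not tested. No paired analysis was possible because the columns carry no replicate number. At these depths 17 of the 22 transfer RNA members were too low to test, and the cause was not tested.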
